A study of Mus musculus with 4 samples.

Results

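The ELK, ELF and TEL genes encode transcription factors of the ETS family, and they were examined here as places where tagged FOXR2 lay on the chromatin. The set holds 10 genes, Elk1, Elk3, Elk4, Elf1, Elf2, Elf3, Elf4, Elf5, Etv6 (TEL) and Spi1 (PU.1), of 21951 protein-coding genes in GENCODE M21. Each gene was taken as its annotated body with 10 kb on either side, on the mm10 (GRCm38) build, and its peaks were read before and after a minimum fold enrichment of 6. Spi1 belongs to the ETS family but to neither the ELK, the ELF nor the TEL branch. The 10 regions spanned 859.396 kb.

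CUT&RUN cuts and releases the DNA near an antibody-bound protein, here with an antibody to the V5 tag. The Foxr2 p53LOF group held 2 libraries of a tumour cell line from a C57BL/6J mouse model made by in utero electroporation, with loss of p53 function and a vector that drives V5-tagged FOXR2 from the ubiquitous CAG promoter. The V5 control group held 2 libraries of line cells from a separate C57BL/6J electroporation model, labelled G34R, which has no V5 tag and was given the same antibody. The control line thus differed from the Foxr2 p53LOF line in tumour model as well as in the tag, and the 2 differences cannot be told apart. By the study's methods both Foxr2 p53LOF replicates came from a single line, and whether they were separate cultures is not stated. For the controls the methods speak of cell lines, without saying whether the replicates differ in line or culture. Cells of all 4 libraries were cross-linked for 1 minute in 0.1% formaldehyde. Peak lists hold no expression, so the lines could not be checked against marker genes.

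The Foxr2 p53LOF replicates held 31909 and 38580 peaks and the V5 controls 308 and 124. Peaks of the tagged line had a median fold enrichment of 5.30 and 4.93, and those of the controls of 6.68 and 14.9. Fold enrichment is the number of fragments at the summit plus 1 over the background plus 1, and a single background for each library fitted the folds, at 1.26 and 2.04 fragments in the tagged line and 1.69 and 0.643 in the controls. A fold above 6 therefore took at least 13 fragments in Foxr2 p53LOF replicate 1 and 18 in replicate 2. Intervals given after a fold are exact Poisson 95% intervals of those fragments and cover counting error only.

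ETS factors share a DNA-binding domain that reads a GGAA core, and the bases around the core set the preference of each branch. The ternary complex factors Elk1, Elk3 and Elk4 sit beside serum response factor and pass MAP kinase signals to immediate early genes. Elf1, Elf2 and Elf4 act widely and in lymphoid cells, Elf3 and Elf5 in epithelia, Etv6 as a repressor needed in blood stem cells, and Spi1 as a master regulator of myeloid cells and B cells. FOXR2 is a forkhead protein of the group whose textbook site is GTAAACA.

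The sequences that follow lie upstream of the annotated exons at the starts of 4 of these genes and at the neighbouring gene Sugt1, and in an intron of Elk3. The promoters were chosen because Elk4, Elf2 and Etv6 held the strongest peaks at their own starts and Elk3 held weak peaks at its start. The last 2 stretches were chosen because CCGGAAG or GTAAACA lay near a summit, and other motifs near a summit are not printed. They were read from RefSeq promoters and the GRCm38 genome, 5′ to 3′ on the strand named. In the promoters, capitals mark each GGAA core on either strand and, in Elk4, the longer word CCGGAAG that ELK factors favour. In the last 2 stretches capitals mark CCGGAAG and GTAAACA, in either orientation.
Elk4 promoter, chr1:132007370-132007606, plus strand: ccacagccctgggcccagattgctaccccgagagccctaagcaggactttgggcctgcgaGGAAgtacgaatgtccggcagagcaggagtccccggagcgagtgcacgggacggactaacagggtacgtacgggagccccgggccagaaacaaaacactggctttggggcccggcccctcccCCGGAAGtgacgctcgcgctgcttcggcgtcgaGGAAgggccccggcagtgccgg
Etv6 promoter, chr6:134035450-134035699, plus strand: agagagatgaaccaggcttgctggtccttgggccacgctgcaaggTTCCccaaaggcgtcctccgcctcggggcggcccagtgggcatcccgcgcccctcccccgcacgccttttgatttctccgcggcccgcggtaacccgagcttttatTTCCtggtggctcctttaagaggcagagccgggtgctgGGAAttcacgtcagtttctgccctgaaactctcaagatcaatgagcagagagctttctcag
Elf2 promoter at the first start, chr3:51340664-51340894, minus strand: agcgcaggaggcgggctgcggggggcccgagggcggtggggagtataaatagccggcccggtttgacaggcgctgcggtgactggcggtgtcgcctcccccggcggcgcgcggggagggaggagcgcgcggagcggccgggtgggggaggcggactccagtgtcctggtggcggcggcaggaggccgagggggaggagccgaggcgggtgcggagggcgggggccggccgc
Elf2 promoter at the internal start, chr3:51277576-51277764, minus strand: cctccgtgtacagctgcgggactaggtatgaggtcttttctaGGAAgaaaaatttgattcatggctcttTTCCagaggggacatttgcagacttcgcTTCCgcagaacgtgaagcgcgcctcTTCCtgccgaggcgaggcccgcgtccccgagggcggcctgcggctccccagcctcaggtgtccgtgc
Elk3 promoter, chr10:93311136-93311409, minus strand: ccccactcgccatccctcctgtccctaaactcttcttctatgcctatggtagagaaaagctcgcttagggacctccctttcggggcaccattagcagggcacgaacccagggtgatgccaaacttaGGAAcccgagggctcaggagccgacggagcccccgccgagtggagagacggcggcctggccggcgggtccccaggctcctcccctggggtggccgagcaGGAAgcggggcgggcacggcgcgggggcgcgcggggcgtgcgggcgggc
Sugt1 upstream stretch, chr14:79587232-79587298, plus strand: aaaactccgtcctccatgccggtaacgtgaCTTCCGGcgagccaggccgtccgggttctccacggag
Elk3 intron 3 stretch, chr10:93255779-93255845, plus strand: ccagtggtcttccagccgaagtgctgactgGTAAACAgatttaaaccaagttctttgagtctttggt
The Elf2 stretch at the first start held no GGAA core, whereas its internal start held 4 in 189 bases. The Elk4 stretch held 3 in 237 bases, the Etv6 stretch 3 in 250 bases and the Elk3 stretch 2 in 274 bases. The printed stretches leave out the exon bases, and the full RefSeq windows of 300 bases at these Elf2 starts held 1 and 6 cores. Over all such windows of protein-coding genes the median was 3 cores, and 95.7% held at least 1. The counts therefore do not set these promoters apart.

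Before any minimum, 8 of the 10 genes held a peak in Foxr2 p53LOF replicate 1, where 66.2% of all protein-coding genes did, and 8 in replicate 2, where 67.0% did. A total of 7 genes, Elk1, Elk3, Elk4, Elf1, Elf2, Elf3 and Etv6, held peaks in both replicates, and so did 63.8% of all genes. Above a fold of 6, 6 genes held a peak in replicate 1 (53.4% of all genes) and 6 in replicate 2 (55.4%). The 5 genes with such peaks in both were Elk3, Elk4, Elf1, Elf2 and Etv6, against 50.9% of all genes. No V5 control peak fell in any of the 10 regions, at any fold, and 0.615% of all genes held a peak in either control. The number of genes with a peak was thus 8 and 8 against 0 and 0 before the minimum, and 6 and 6 against 0 and 0 after it. An exact two-sided permutation test over the 4 libraries gave p = 0.333 for each, which is the smallest value that 2 against 2 can give.

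Reproducible sites were stretches covered by filtered peaks of both Foxr2 p53LOF replicates, where filtered means a fold above 6, a −log10 q above 6, a length under 10000 bp and no control peak overlapping by 10 bp. The same 5 genes held such a site, beside 50.0% of all protein-coding genes (10978). At their own starts, within 1 kb of a protein-coding transcript, 4 genes held a site: Elk4, Elf1, Elf2 and Etv6. Of all genes 39.2% (8599) did. Both shares in the ETS genes were near those of all genes, so that the counts do not set these genes apart. The 10 regions held 12 sites, 6 at the gene's own start and 6 elsewhere, and the intervals of the 2 replicate folds overlapped at each of the 12.

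**Figure D1:**
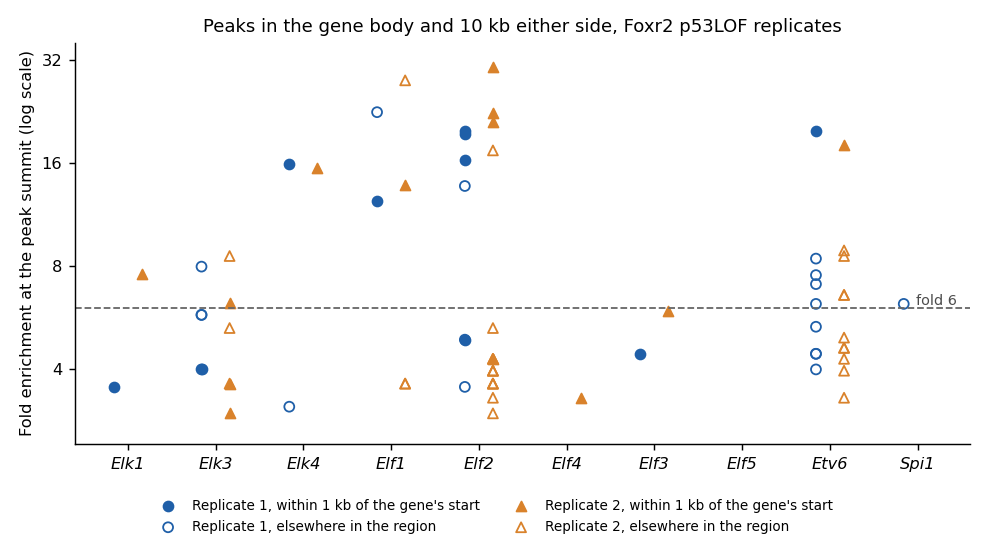
Fold enrichment at the summit, on a log scale, of every peak in each gene and its 10 kb flanks, with the Foxr2 p53LOF replicates in separate colours, filled marks for peaks within 1 kb of the gene's start, open marks for the rest and the minimum of 6 as a line. Elk4, Elf1, Elf2 and Etv6 rose above 12 in both replicates, Elf5 had no peak, and no control peak fell at any of the genes.

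Among the ternary complex factors, Elk4 (SAP-1) had a strong site at its start and Elk1 and Elk3 had weak peaks there. Elk4 lies on chromosome 1 at 132007607–132032612, plus strand. Its start peak reached fold 15.9 (11.2–21.9) on 35 fragments in replicate 1 and 15.4 (11.4–20.5) on 46 fragments in replicate 2. The 2 folds were almost equal, and the shared stretch, chr1:132006863-132009405, stood at the 83.5 percentile of the 7807 sites near a start, ranked by the lower of the 2 folds. The summits lay 378 bp apart, in the 5′ untranslated region in replicate 1 and in intron 1 in replicate 2. Elsewhere in Elk4 there was a lone replicate 1 peak in intron 3, at fold 3.09 on 6 fragments.

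The CCGGAAG word of the Elk4 promoter lay 68 bp upstream of the RefSeq start, at chr1:132007552-132007558, 213 bp from the replicate 1 summit and 591 bp from that of replicate 2. Elk4 was the only one of the 9 genes with RefSeq promoter windows (250 bases before to 50 after the start) whose windows held the word. Over all 20150 windows of protein-coding genes 11.9% held it, searched on both strands. The share was 21.6% in windows under a reproducible site and 5.73% in the rest.

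Elk1, the best studied target of ERK among these factors, lies on chromosome X at 20933395–20950608, minus strand. Its start carried a peak of fold 3.53 (1.69–6.81) on 7 fragments in replicate 1, with the summit in the 5′ untranslated region, and of fold 7.56 (4.86–11.3) on 22 fragments in replicate 2, with the summit in intron 1. Both peaks lay at the start, but replicate 1 stayed under the minimum while replicate 2 passed it, and the intervals overlapped. Elk1 had no other peak. The median fold on chromosome X was 5.30 and 5.26, beside 5.30 and 4.93 on the autosomes.

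Elk3 (Net), which can repress its targets, lies on chromosome 10 at 93247414–93311135, minus strand, and its strongest peak was not at its start. In intron 3, 55661 bp from the first start, the fold was 7.95 (4.82–12.5) on 17 fragments in replicate 1 and 8.54 (5.64–12.5) on 25 in replicate 2. This site, chr10:93254986-93256705, was at the 39.5 percentile of the 11943 sites on the autosomes, X and Y, called all sites here. Its GTAAACA word, printed with the sequences at chr10:93255809-93255815, lay 108 bp from the replicate 2 summit and 338 bp from that of replicate 1. It was the only one of the 12 sites with the word within the 200 bp about its centre, a window that held it in 3.14% of all sites away from starts.

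Near the Elk3 start the peaks were weak and spread out. Replicate 1 had a fold of 3.98 on 8 fragments at the start and of 5.74 on 12 fragments with a summit 1478 bp away, in intron 1. Replicate 2 had 3.61 and 2.96 upstream and 6.24 (3.83–9.67) on 18 fragments with a summit 741 bp away, in intron 1. The last passed the minimum with no fragment to spare, and the replicate 1 peak that it overlapped was 1 fragment short of the 13 needed. Elsewhere, replicate 1 had peaks of 5.74 in intron 1 and 3.98 in intron 2, and replicate 2 of 3.61 and 5.26 in the same introns.

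Among the ELF genes, Elf2 stood out by the number of its sites, Elf1 shared a start site with a neighbour and Elf4 had a single weak peak. Elf2 (NERF) lies on chromosome 3 at 51252720–51340663, minus strand, and carried 4 sites. At the first start, chr3:51338780-51342976, the fold was 19.9 (14.6–26.5) on 44 fragments in replicate 1 and 30.6 (24.7–37.4) on 92 in replicate 2. The summits lay 567 and 334 bp upstream of the start. This was the highest fold of any peak in the 10 regions in replicate 2.

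A second Elf2 site, chr3:51332405-51334987, lay in intron 1 away from any start, with a fold of 13.7 (9.38–19.4) on 30 fragments in replicate 1 and 17.4 (13.1–22.7) on 52 in replicate 2. Further into intron 1, chr3:51326962-51329974 reached 16.3 (11.6–22.5) and 22.3 (17.4–28.3) on 36 and 67 fragments. The edge of this site came within 1 kb of an annotated start in intron 1, but the summits were 2134 and 2233 bp upstream of that start. The fourth, chr3:51275279-51277741, lay over the internal starts in intron 4, with folds of 19.4 (14.2–26.0) on 43 fragments and 21.03 (16.2–26.8) on 63. In replicate 2 the interval at the first start lay above that of the site at chr3:51332405-51334987 and overlapped the other 2, whereas in replicate 1 the intervals of all 4 sites overlapped. All 4 folds were higher in replicate 2.

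Of all protein-coding genes 18.4% held at least 2 sites and 1.67% at least 4, the number reached by Elf2 and by Etv6. These shares take no account of gene length, and the regions of Elf2 and Etv6 spanned 107.944 and 254.459 kb. With a −log10 q above 10 Etv6 kept 2 sites and Elf2 4. Elf2 also had 3 weaker peaks in replicate 1 and 12 in replicate 2, with folds from 2.96 to 5.26. All were under the minimum. Elf2 thus held 7 peaks in replicate 1 and 16 in replicate 2, of the 28 and 41 over the 10 genes.

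Elf1 lies on chromosome 14 at 79481194–79582494, plus strand, and shares its start region with Wbp4. The site, chr14:79479863-79484138, had a fold of 12.4 (8.30–17.8) on 27 fragments in replicate 1 and 13.8 (9.99–18.6) on 41 in replicate 2. The summits lay 184 and 77 bp into Elf1, in the 5′ untranslated region, 107 bp apart. In replicate 1 the summit was closer to the Wbp4 start (142 bp) and in replicate 2 to that of Elf1, so the peak cannot be given to either gene. It was the lowest of the 6 own-start sites, at the 72.2 percentile of the sites near a start.

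The strongest site by the lower fold in the 10 regions lay in the 3′ flank of Elf1 and belonged by position to Sugt1, a co-chaperone gene. At chr14:79586185-79588818 the fold was 22.5 (16.8–29.6) on 50 fragments in replicate 1 and 27.9 (22.3–34.5) on 84 in replicate 2. The summits were 18 bp apart and 225 and 207 bp from the Sugt1 start, against 71780 and 71798 bp from the nearest start of Elf1. The printed Sugt1 stretch holds CCGGAAG on its minus strand, 201 and 219 bp from the summits. Within Elf1, replicate 2 had 2 weak peaks of fold 3.61 in intron 1.

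Elf4 (MEF), on chromosome X at 48411046–48463132, minus strand, had no peak in replicate 1. In replicate 2 it had a peak of fold 3.29 (1.68–5.94) on 9 fragments in intron 1, 104 bp from the start. Of the epithelial genes, Elf3, on chromosome 1 at 135253575–135258568, minus strand, had start peaks of 4.42 (2.26–7.99) on 9 fragments and 5.91 (3.58–9.27) on 17. Both lay under the minimum, replicate 2 by 1 fragment. The summits were 39 bp inside the gene in replicate 1 and 478 bp upstream in replicate 2. Elf5, on chromosome 2 at 103411688–103450989, plus strand, had no peak in any of the 4 libraries, and the lowest fold listed anywhere in the Foxr2 p53LOF replicates was 3.09 on 6 fragments and 2.96 on 8, so weaker occupancy would not be listed.

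**Figure D2:**
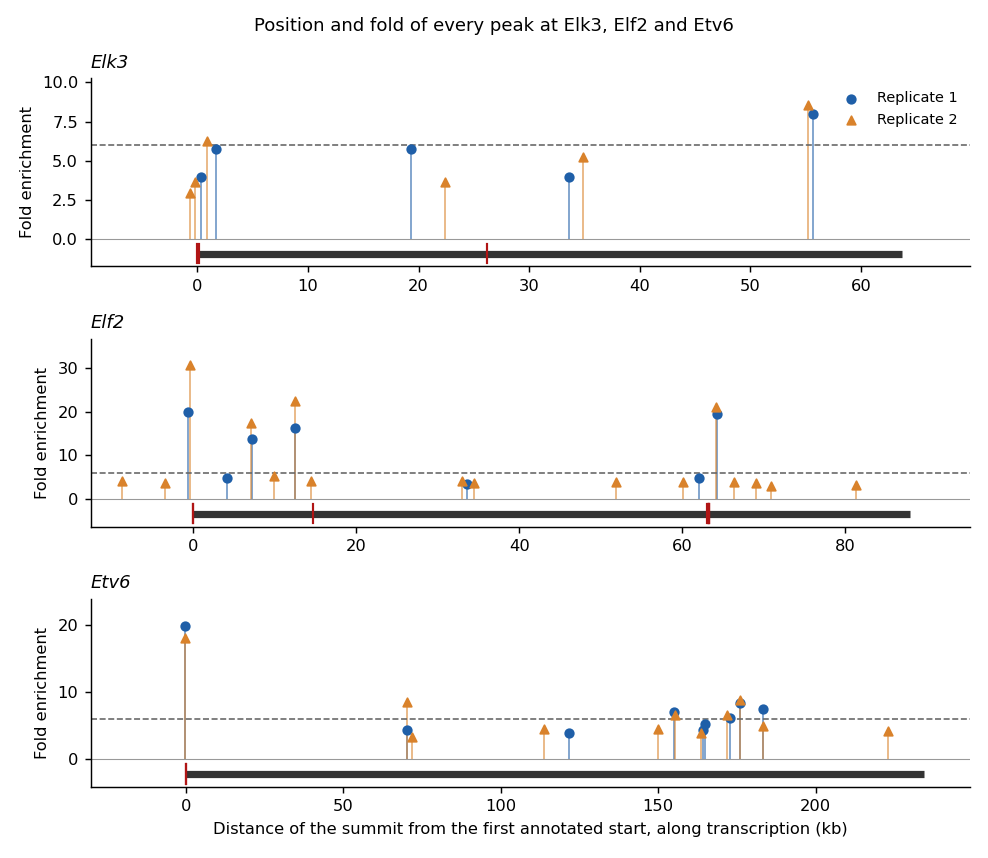
Position, in kb from the first start along the direction of transcription, and fold enrichment of every peak at Elk3, Elf2 and Etv6, with 1 panel per gene, a colour per Foxr2 p53LOF replicate and the gene drawn below. Red ticks mark annotated starts and the dashed line the minimum of 6. The Elf2 peaks above fold 12 lie at the first start, in intron 1 and at the internal starts, while Etv6 has its highest peak at the start and a group of lower peaks in intron 3.

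Etv6, on chromosome 6 at 134035700–134270158, plus strand, had a strong site at its start and 3 weak sites close together in intron 3. At the start, chr6:134034400-134037267, the fold was 19.9 (14.6–26.5) on 44 fragments in replicate 1 and 18.1 (13.7–23.5) on 54 in replicate 2. The summits lay 5 bp apart, 274 and 279 bp upstream of the first start. The site stood at the 89.8 percentile of the sites near a start.

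The intronic Etv6 sites lay 155108, 172819 and 176097 bp from the first start by their replicate 1 summits. The first of them, chr6:134188738-134191955, had folds of 7.07 (4.15–11.4) and 6.57 (4.09–10.1). The second, chr6:134206889-134208885, had 6.19 (3.50–10.3) and 6.57 (4.09–10.1), with summits 998 bp apart. It held a CCGGAAG word at chr6:134208245-134208251, 271 and 727 bp from the summits. The third, chr6:134211064-134212767, had 8.39 (5.15–13.0) and 8.87 (5.91–12.8). In both replicates all 3 intervals lay below that of the start site. The 3 sites were at the 11.5, 7.23 and 45.2 percentiles of all sites.

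At 2 more places in Etv6 the replicates fell on different sides of the minimum. In intron 2, 70238 bp from the first start, the fold was 4.42 (2.26–7.99) in replicate 1 and 8.54 (5.64–12.5) in replicate 2. In intron 3, 183456 bp from the first start, it was 7.51 (4.48–11.9) in replicate 1 and 4.93 (2.84–8.05) in replicate 2. The intervals overlapped at both places, and the higher replicate differed between them. The other Etv6 peaks, 3 in replicate 1 and 5 in replicate 2, had folds from 3.29 to 5.30.

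Spi1, on chromosome 2 at 91082390–91115756, plus strand, had a single peak, in replicate 1. It lay in intron 2, 4932 bp from the nearest Spi1 start, and reached a fold of 6.19 (3.50–10.3) on 13 fragments, the fewest that pass in that library. Replicate 2 had no peak in the region. The peaks nearest the minimum were thus those of Spi1 and Etv6 at 6.19 and of Elk3 at 6.24 above it, and of Elf3 at 5.91 and of Elk3 at 5.74 below it.

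Over the 10 regions 14 of 28 peaks in replicate 1 (50%) and 15 of 41 in replicate 2 (36.6%) had a fold above 6. Over each whole library the shares were 42.5% and 39.0%. The fold was higher in replicate 2 at 9 of the 12 sites, and at 75.1% of all sites. The 6 own-start sites came from 4 genes, with 3 at Elf2, so they are not separate genes. Their lower folds ran from 12.4 to 19.9, and all 6 were above the median of 9.72 over all sites near a start. The 4 intronic sites of Elk3 and Etv6 ranged from 6.19 to 8.39 and the intron 1 site of Elf2 stood at 13.7, beside a median of 7.95 over all sites away from starts.

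**Figure D3:**
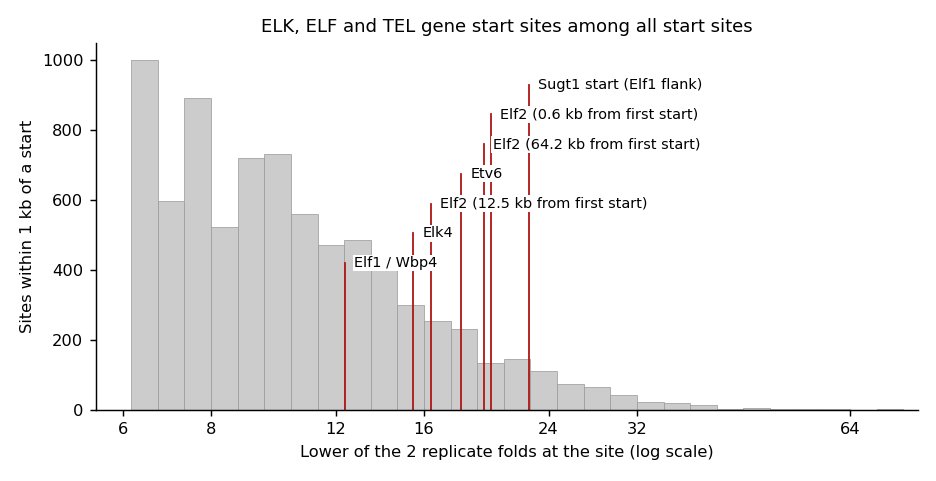
Histogram of all 7807 reproducible sites within 1 kb of a transcript start by the lower of their 2 replicate folds, on a log scale, with vertical lines at the 6 own-start sites of Elk4, Elf1, Elf2 and Etv6 and at the Sugt1 start site in the Elf1 flank. The lines run from 12.4 to 22.5, to the right of the median of 9.72.

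Promoter windows with and without a site were compared by base composition. Over all windows the median GC content was 62.7% under a site (7794 windows) and 52.3% without (12356 windows), and the median ratio of observed to expected CpG was 0.823 and 0.314. The 9 genes with RefSeq windows had 15 windows, 7 of them under a site. Those of Elk4 had 68.3%, 74.3% and 67.3% GC, those of Elf2 78.7% and 67.0%, and the Etv6 window 57.3% with a CpG ratio of 0.693. Elf1 had a window of 73.0% GC and ratio 1.08 under its site and another of 44.7% and ratio 0.202 without one.

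The windows of these genes overlapped in composition between those with and without a site. Elk3, which had no filtered site at its start, had 71.3% GC and a CpG ratio of 0.816, above the 0.802 of an Elk4 window under a site, and an Elf4 window had 75.3% and 0.692. Elf5, without any peak, had 60.7% and 55.3% GC but CpG ratios of 0.110 and 0.442. Elf3 had 59.0% GC with a ratio of 0.460 and Elk1 57.3% with 0.457. Etv6 and Elk1 thus had the same GC content, one under a site and the other not. The part that base composition plays in these peaks was not tested.

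**Figure D4:**
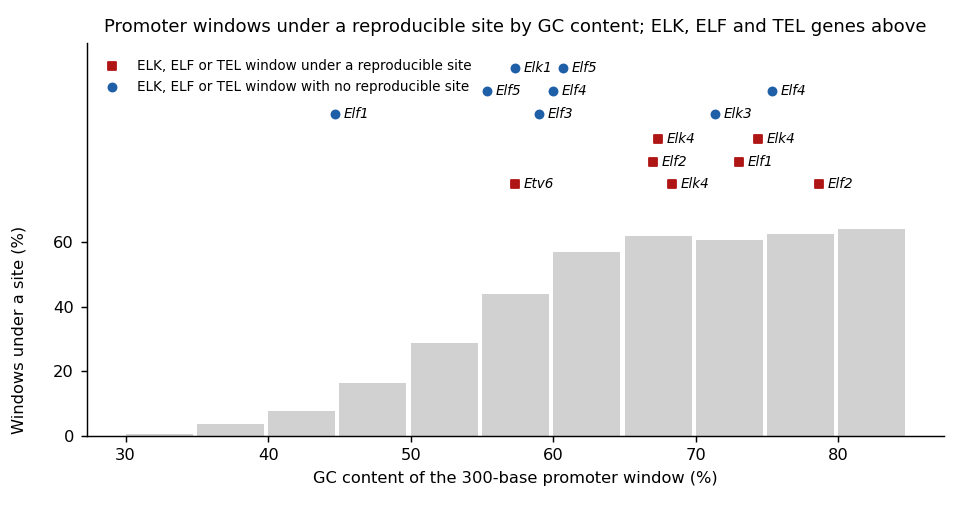
Share of all protein-coding RefSeq promoter windows under a reproducible site, in percent, by GC content in bins of 5 percentage points, with the ELK, ELF and TEL windows marked above the bars by whether a site covers them. The share runs from 0.585% at 30 to 35% GC to 64.1% at 80 to 85% GC, and the windows of these genes with and without a site overlap from 57.3 to 75.3% GC. The height of the marked windows carries no value.

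The 12 sites were also searched over their whole length, on both strands, for 4 motifs. CCGGAAG was in 3 of the 12, at Elk4, the Sugt1 start and an Etv6 intron, beside 29.2% of all sites. GTAAACA was in 5 of the 12 beside 20.9%, the E-box CACGTG in 3 beside 32.7% and the CArG box, the serum response factor site, in 3 beside 8.65%. Whole-length shares depend on the length of a site, and these 12 ran from 1704 to 4276 bp. Of the 3 CArG boxes, those of the Elf1 and the first Elf2 start lay over 1 kb from both summits. The E-box of the first Elf2 start lay 121 and 354 bp from the summits, and the GTAAACA at its internal starts 332 and 382 bp. Within the central 200 bp GTAAACA was in 1 of the 12 (Elk3), and the other 3 motifs were in 0. Over all sites this window held GTAAACA in 1.93%, CCGGAAG in 6.43%, the E-box in 5.15% and the CArG box in 0.795%.

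Other genes of these pathways were read by the same rule. The lists here and in the next paragraph were chosen with earlier results of these data known. A share above that of all genes therefore cannot be read as a result about a pathway. Of 10 genes of the serum response factor and MAP kinase pathways around the ternary complex factors, 9 held a site at their own start, beside the 39.2% of all genes. The list includes Mapk8, which encodes a JNK kinase, outside the ERK branch, and its start site had folds of 8.39 and 10.8. The median lower fold of these start sites was 10.6 and the lowest 6.63, beside a median of 9.72 over all sites near a start. The highest were those of Egr1, an immediate early zinc finger gene, at 23.9 and 35.5, of Srf itself at 16.8 and 26.6 and of Fos at 16.3 and 24.3. Of 16 other ETS genes, 8 held a site, the same share as the 50.0% of all genes, and 6 a start site, close to the 39.2% of all genes. The median lower fold of those start sites was 13.3. Gabpa, a ubiquitous ETS factor, was highest at 22.1 and 25.6, then Erf, an ERK-controlled repressor, at 17.7 and 23.3 and Etv4 at 16.3 and 25.3.

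Of 5 genes for proteins that Etv6 recruits to repress, 4 held a start site, beside 39.2% of all genes, with a median lower fold of 10.8, and Sin3a was highest at 22.1 and 41.7, followed by Ncor1 at 12.8 and 18.4. Of 6 partners of Spi1 in blood cells, 2 did, beside the same 39.2%, Jun at 12.4 and 13.8 and Cebpa at 12.8 and 7.88, while the other 4 held no site. The 4 start-site genes among the 10 ELK, ELF, TEL and PU.1 genes had a median lower fold of 16.8, with Elf2 entered by the strongest of its 3 start sites. These list medians take a single site per gene, whereas the median of 9.72 is over all sites near a start. No control peak fell at any gene of these lists.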

How the data were processed

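Peaks of V5 CUT&RUN were read from 4 deposited narrowPeak lists, 2 Foxr2 p53LOF and 2 V5 control replicates. The submitters' processing notes name Trimmomatic 0.39, BWA 0.7.17, Picard 2.26.6, HOMER 4.11 and MACS2 2.2.7.1 and the mm10 build. The background library used by the authors for peak calling, if any, is not given in the sources used here. The values made by the authors are a fold (ratio) over background and p and q values as −log10. The deposited score column was not used. Folds, and so their comparison between libraries, depend on depth through the background, and no spike-in scaling entered these values.

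Fragments at each summit were recovered from the deposited fold and −log10 p-value with a single background per library, and came out whole within 0.02 for 100% of folds up to 30, so these folds carry no correction for regional background. Filters followed the study's methods (fold above 6, −log10 q above 6, length under 10000 bp, no 10 bp overlap with a control peak), and a reproducible site needed an overlap of 1 bp between replicates. The study's further step, an intersection with snATAC-seq peaks, was left out because those peaks were not used here, so the set of sites is not its final set. The 11947 sites here also differ in number from the sites that the study counts as reproducible before that step. The source of that difference was not examined. Genes and starts came from GENCODE M21, and promoter sequences from RefSeq (GRCm38.p6), which matched 9 of the 10 genes. All 10 genes are named, with neighbours whose starts lay within 1 kb of a site in these regions, and up to 3 genes with the highest lower fold of each pathway list. Mapk8 falls outside this rule and was named after its values were seen, to show what its list holds. The genes and lists were chosen with earlier results of these data known. No test across genes was run. Scripts were tested on simulated data and used Python 3.11.15, numpy 2.4.6, scipy 1.17.1 and matplotlib 3.10.9. Alternatives were other fold, q, length, overlap, control, region and start-window settings, folds scaled by chromosome, and each replicate left out.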

Additional observations from a re-analysis of the deposited data

How the results depend on the processing

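Of 46 values under alternatives, 42 were within 1.5 times the reported count. With 50 kb in place of 10 kb on either side, genes with a reproducible site rose from 5 to 9 and genes with peaks above the minimum in both replicates from 5 to 9, since more sequence was read. The shares of all genes given above hold for 10 kb, and none is given at 50 kb, so these counts cannot be set against them. With neither a minimum fold nor a minimum q, a setting added after seeing the data, genes with a site at their own start went from 4 to 7, adding Elk1, Elk3 and Elf3, and sites from 12 to 22. The 39.2% of all genes belongs to the filtered sites, and no such share is given without the minima. A minimum fold of 10 left 8 sites and lost the Elk3 site and the 3 intronic Etv6 sites. Leaving out each replicate in turn gave 5 to 6 genes with a site, 4 to 6 with a start site and 12 to 15 sites. Without Foxr2 p53LOF replicate 1, Elk1 and Elk3 gained a start site (6 genes), and without replicate 2, Spi1 gained a site. Scaled by chromosome, the counts stayed at 5, 4 and 12, but single peaks near the minimum changed sides. In replicate 2 the Elf3 start peak rose from 5.91 to 6.34, and the Elk3 peak near its start fell from 6.24 to 5.51. No paired analysis was possible because no model was fitted across features and the groups are different lines that share only replicate numbers. A −log10 q above 10 left 10 sites and took Etv6 from 4 to 2. The Spi1 peak and the Elk3 peak near its start passed the minimum with 13 and 18 fragments, the fewest that pass, and the Elf3 peak in replicate 2 was 1 fragment short.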
